A study of Homo sapiens with 8 samples.

Results

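The expression of 10 genes for sensors and effectors of double-stranded RNA was examined on 8 Agilent expression arrays. The genes were *DDX58*, *IFIH1*, *DHX58*, *TLR3*, *EIF2AK2*, *ADAR*, *OAS1*, *OAS2*, *OAS3* and *OASL*. They were chosen by name from what their proteins are known to do, with earlier results of these data known. They are read by 15 of the 58201 probes and make up 10 of the 22439 genes that could be named. Each array held RNA of treated cells labeled with Cy5 (red) and RNA of control cells of the same line labeled with Cy3 (green). The *miR-150-3p* group had 1 array of EBC-1 and 1 of SK-MES-1 cells, both labelled as lung squamous cell carcinoma lines, transfected with *miR-150-3p*. The siDONSON group had 3 arrays of the small cell lung cancer line SBC-3, transfected with siDONSON-1, siDONSON-2 or siDONSON-3, different siRNAs against the gene *DONSON*. The edited group had 3 arrays of A549 cells, a lung adenocarcinoma line, in which *LOXL2* had been edited with CRISPR/Cas9 (A549-GE1, A549-GE2 and A549-GE3). The labels give the control of the transfections as mock and also as not transfected, and the control of A549 as not genome edited. The sources used here do not say which reagents the controls received, or whether each edited line is a single clone. A miRNA and a siRNA are both delivered as RNA duplexes, and the question was whether the 10 genes differed between duplex transfection and genome editing. Each treatment was made in cell lines of its own, so treatment and cell line cannot be told apart.

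RIG-I (*DDX58*, now also named *RIGI*), MDA5 (*IFIH1*) and LGP2 (*DHX58*) are RNA helicases that bind double-stranded RNA in the cytosol, and RIG-I and MDA5 signal to interferon genes. TLR3 binds double-stranded RNA in endosomes. PKR (*EIF2AK2*) slows translation once bound to it, the enzymes OAS1, OAS2 and OAS3 make the messenger 2-5A, OASL is a relative without that activity, and ADAR edits adenosine to inosine in double-stranded RNA. Most of these genes are themselves induced by interferon, through response elements near their start sites.

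Promoter sequences are shown because many interferon-induced genes carry a response element near their start. RefSeq windows of 250 bases before to 50 bases after a gene's start (GRCh38.p14) were used for 7 of the 10 genes. The core GAAANNGAAA of the interferon-stimulated response element, searched on both strands, was found in 3.574% of 35116 such windows, and in windows of 4 of the 7 genes, *IFIH1*, *TLR3*, *EIF2AK2* and *OAS3*. The variant GGAANNGAAA was added after those matches were seen. It was in 2.816% of all windows and in those of 2 of the 7 genes, *DDX58* and *OAS1*. One or the other was in 6.131% of the windows, and the windows of *ADAR* held neither spelling. A match is a description of the letters and not a measured site. The matched stretches follow, 5′ to 3′ on the strand of the gene, with the match in capitals. In *IFIH1* the first stretch holds 2 overlapping matches.
*DDX58* (chr9:32526376-32526415, minus strand): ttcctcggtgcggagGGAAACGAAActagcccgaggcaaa
*IFIH1* (chr2:162318813-162318858, minus strand): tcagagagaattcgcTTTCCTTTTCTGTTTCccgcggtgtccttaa
*IFIH1* (chr2:162318681-162318720, minus strand): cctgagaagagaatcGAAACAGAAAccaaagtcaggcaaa
*TLR3* (chr4:186069137-186069176, plus strand): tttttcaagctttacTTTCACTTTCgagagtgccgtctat
*EIF2AK2* (chr2:37156962-37157001, minus strand): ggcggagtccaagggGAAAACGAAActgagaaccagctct
*OAS1* (chr12:112906929-112906968, plus strand): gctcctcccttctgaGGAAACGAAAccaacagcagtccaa
*OAS3* (chr12:112938316-112938355, plus strand): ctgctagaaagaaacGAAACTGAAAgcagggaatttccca
*OAS3* (chr12:112938447-112938486, plus strand): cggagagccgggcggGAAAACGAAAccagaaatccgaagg
The same 10 letters stand in capitals in *DDX58* and *OAS1*. Likewise, *EIF2AK2* and the second stretch of *OAS3* carry identical capitals. The capitals began 6 bases before the annotated start of *EIF2AK2*, 18 bases before that of *OAS1* and 204 bases before that of *DDX58*.

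The scanner software judges whether a spot is well above background. Probes that were so in either channel of an array were counted there, and a gene's value is the mean log2 ratio of red over green over its counted probes. A positive log2 ratio means a higher level in treated than in control cells. All 8 arrays were on 1 slide, with 41.1% to 46.4% of spots well above background in green and 48.5% to 56.2% in red. The targeted genes bore out the labels: the log2 ratio of *DONSON* was -2.15, -1.79 and -2.11 in the siDONSON arrays, and that of *LOXL2* was -2.49, -2.67 and -2.59 in the edited arrays. Of marker genes for the labelled types, the EBC-1 control had 1 of 6 squamous markers above background (*SOX2*, with *TP63* and *KRT5* not above background) and the SK-MES-1 control 3 of 6. The SBC-3 control had 3 of 7 small cell markers and also 2 of 6 squamous ones, and the A549 control 1 of 6 squamous markers. Of the adenocarcinoma markers 4 of 6 were above background in A549, without *NKX2-1* and *SFTPB*, but the same 4 (*NAPSA*, *KRT7*, *KRT8* and *KRT18*) were so in EBC-1 and SK-MES-1, and 3 of 6 in SBC-3. The EBC-1 and SK-MES-1 controls thus both had more adenocarcinoma than squamous markers. Small cell markers were also above background outside SBC-3, *CHGA* in A549 and *NCAM1* in SK-MES-1, and *NCAM1* was not so in SBC-3. The names of the tumor types are those of the labels. Of 4 immune markers 2 or 3 and of 3 fibroblast markers 2 were above background in each control, while *PECAM1* and *VWF* of endothelium were in none. In bulk RNA, fewer cells with a transcript and less of it per cell cannot be told apart.

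No member passed the test between duplex transfection and genome editing. Taking the mean of the 2 transfection groups minus the edited group, 0 of the 5 members with a value on all 8 arrays were called by limma at an adjusted p of 0.05, where 5.9% of 12864 genes were. At an unadjusted p of 0.05, 2 of the 5 passed, *DHX58* and *IFIH1*, and so did 23.4% of all genes tested. With *miR-150-3p* alone against editing, 1 of 9 tested members was called, *OAS1*, against 3.6% of 13778 genes, and 5 of 9 had an unadjusted p under 0.05, against 22%. With siDONSON alone against editing, 0 of 5 were called, against 7.29% of 13656 genes, and 1 had an unadjusted p under 0.05 (*DHX58*), against 25.4%. Between the transfections, *miR-150-3p* minus siDONSON, 0 of 5 were called, against 2.69% of 13029 genes, and 0 without adjustment, against 22.9%. These comparisons share arrays. Against their own controls, limma called 0 of 10 members in the *miR-150-3p* group, where 5.38% of 14230 genes were called. At an unadjusted p of 0.05 it was 7 of the 10, beside 30% of all genes. In the siDONSON group 0 of 5 were called, where 7.22% of 14454 genes were, and 1 had an unadjusted p under 0.05 (*DDX58*), beside 26.1%. In the edited group 3 of 9 were called, *OAS1*, *OAS3* and *EIF2AK2*, and all 3 fell, where 14.4% of 15531 genes were called. Without adjustment it was 5 of 9, beside 31% of all genes. With so few members, these counts describe the genes named.

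**Figure D1:**
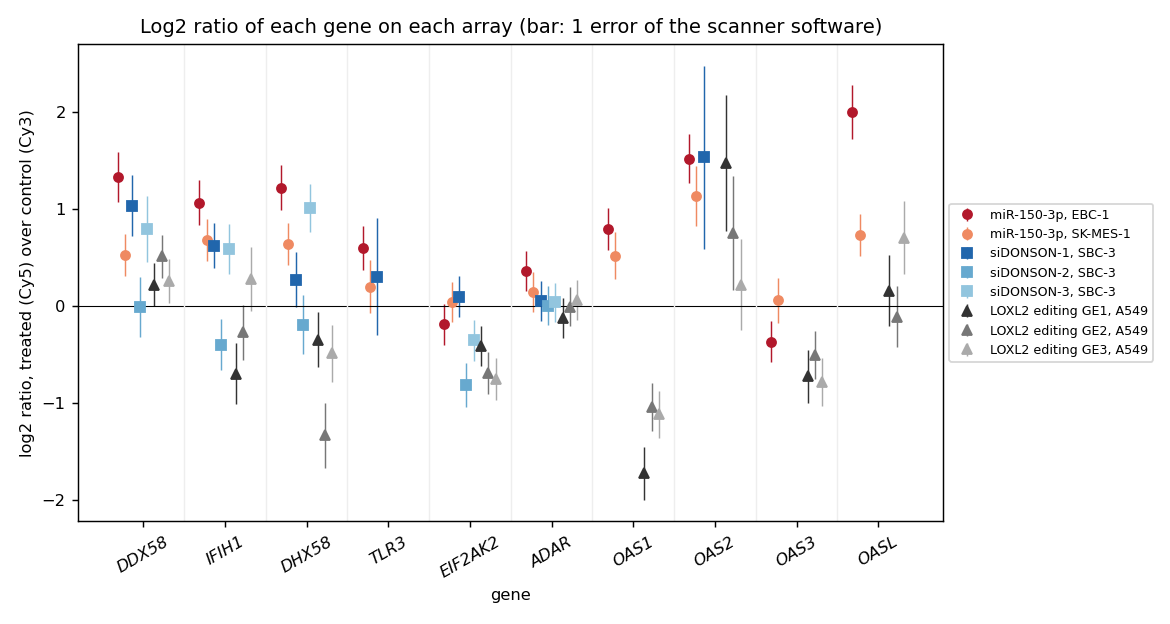
Log2 ratio of red (treated) over green (control) for each gene on each array, with the software's error of 1 gene value as a bar. Circles are *miR-150-3p*, squares siDONSON and triangles edited arrays, and a missing point means that no probe was counted. For *OAS1* the *miR-150-3p* points lie at 0.79 and 0.52 and the edited points between -1.73 and -1.05.

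The control cells differed widely in these genes before any treatment was considered. Green levels are given for each probe as log2 units from the 75th percentile of the array, and each probe is compared only with itself. Of the 15 probes, 11 had their highest green level in EBC-1. All 15 were above background there, 13 were in SK-MES-1, 6 in SBC-3 and 10 or 11 in A549. The controls of a line may be a single RNA, so the range over its 3 arrays may be technical, and no test was made.

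Among the helicases, the *DHX58* probe had a green level of 2.59 in EBC-1 cells and 0.46 in SK-MES-1. It was -2.19, -2.02 and -1.68 in SBC-3, and -2.42, -2.19 and -2.42 in A549. EBC-1 stood far above the others, and SBC-3 and A549 were neighbors that nearly met. After quantile normalization of the mean of both channels, EBC-1 was 25.2-fold above A549 and 3.81-fold above SK-MES-1. The *IFIH1* probe ran in the same order, at 0.02 in EBC-1, -0.42 in SK-MES-1, -1.91 to -1.47 in SBC-3 and -3.19 to -2.49 in A549. The difference between EBC-1 and SK-MES-1 was 1.35-fold, and neither line has a second array to set its spread.

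The 2 probes of *DDX58* disagreed about the controls. Probe A_33_P3372910 was lowest in EBC-1, at -1.75, and highest in SK-MES-1, at -0.27. Probe A_33_P3418170 was highest in EBC-1, at 0.12, and not well above background in any SBC-3 control. For the second probe, EBC-1 was at least 8.81-fold above SBC-3, taking as the level of a dim probe the lowest signal that was well above background on the array, or its own where higher. The order of the lines for *DDX58* therefore depends on the probe.

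The OAS genes were not well above background in SBC-3 controls and were highest in EBC-1. *OAS1*, *OAS3* and *OAS2* lie side by side on chromosome 12, and *OASL* lies apart on the same chromosome. The *OAS1* probe had a green level of 1.15 in EBC-1, -2.0 in SK-MES-1 and -0.84 to -0.51 in A549, so A549 stood between EBC-1 and SK-MES-1. For the brighter *OAS3* probe the levels were 3.09 in EBC-1, 1.0 in SK-MES-1 and 0.73 to 0.79 in A549. None of the *OAS1*, *OAS2*, *OAS3* and *OASL* probes was well above background in an SBC-3 control, and EBC-1 was at least 18.7-fold above SBC-3 for *OAS1*, at least 65.1-fold for *OAS3* and at least 67.9-fold for *OASL*. The *OASL* level was 3.29 in EBC-1 cells and 1.16 in SK-MES-1. In A549 it was -3.18 and -2.69 on the arrays of A549-GE1 and A549-GE2 and not well above background on that of A549-GE3. *OAS2* was above background in EBC-1 at all 3 of its probes, in SK-MES-1 at 1, and in no A549 control.

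*EIF2AK2* and *ADAR* were above background in every control and varied less between lines. The brighter *EIF2AK2* probe had green levels of 3.67 in EBC-1, 3.16 in SK-MES-1, 2.96 to 3.12 in SBC-3 and 3.94 to 3.99 in A549. A549 was highest at both *EIF2AK2* probes, by 1.36-fold and 1.1-fold over EBC-1, although at the dimmer probe EBC-1 (0.41) lay within the range of the A549 arrays (0.35 to 0.68). *ADAR* lay at 4.37 in EBC-1, 4.66 in SK-MES-1, 4.90 to 5.0 in SBC-3 and 4.55 to 4.64 in A549. SK-MES-1 and A549 differed by 1.04-fold. *TLR3* was above background in the EBC-1 control (-1.02) and the SK-MES-1 control (-2.53) and in no control of SBC-3 or A549, and EBC-1 was at least 4.16-fold above SBC-3 and at least 6.71-fold above A549.

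**Figure D2:**
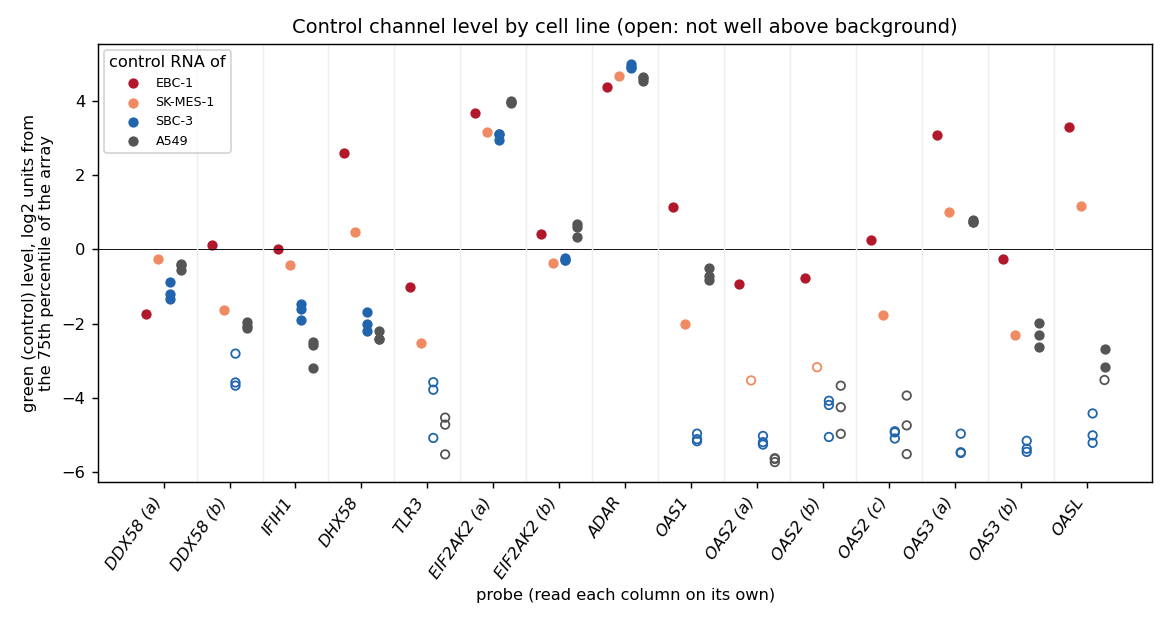
Green (control) level of each of the 15 probes in log2 units from the 75th percentile of the array, colored by cell line, with 1 point per array. Open points are not well above background, and letters a, b and c tell apart probes of a gene. EBC-1 is the highest line at 11 probes, while A549 is highest at both probes of *EIF2AK2* and SBC-3 at *ADAR*.

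In the treated cells, the helicases had their highest log2 ratios after *miR-150-3p* in EBC-1. For *DHX58*, whose LGP2 protein modulates signaling by the other helicases, the log2 ratio was 1.22 in EBC-1 cells and 0.63 in SK-MES-1. With siDONSON-1, siDONSON-2 and siDONSON-3 it was 0.27, -0.20 and 1.0. In A549-GE1, A549-GE2 and A549-GE3 it was -0.35, -1.34 and -0.49. All 3 edited arrays were below every transfection array. The difference of the mean log2 ratios, duplex transfection minus editing, was 1.37 (SE 0.33, 95% interval 0.62 to 2.12, 2.58-fold), at an adjusted p of 0.0501. It was 1.65 for *miR-150-3p* (adjusted p 0.0694) and 1.08 for siDONSON (adjusted p 0.112). The result lies at the threshold: the adjusted p was 0.0446 without the SK-MES-1 array and 0.0365 without siDONSON-2, and it ran from 0.0365 to 0.188 over 18 alternatives, 4 of them under the threshold. With normexp background correction the difference was 0.55 (adjusted p 0.0508).

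For *IFIH1*, whose MDA5 protein binds long double-stranded RNA, the log2 ratio was 1.06 in EBC-1 cells and 0.68 in SK-MES-1. The siDONSON arrays gave 0.62, -0.40 and 0.58, and the edited arrays -0.70, -0.28 and 0.28. siDONSON-2 stood with the edited arrays, and the other 4 transfection arrays were above all of them. Duplex transfection minus editing was 0.80 (SE 0.30, 95% interval 0.11 to 1.49), at an adjusted p of 0.159. With *miR-150-3p* alone it was 1.1 (adjusted p 0.144). With normexp the difference shrank to 0.30 and was called (adjusted p 0.0381), as was that of *miR-150-3p* minus editing (0.51, adjusted p 0.0184). Over all alternatives these p-values reached 0.450 and 0.453.

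For *DDX58*, whose RIG-I protein binds short duplexes with a 5′ triphosphate, the mean of both probes was 1.32 in EBC-1 cells and 0.52 in SK-MES-1. It was 1.03, -0.01 and 0.79 with the siRNAs and 0.22, 0.51 and 0.25 in the edited cells. siDONSON-2 lay below all edited arrays, and SK-MES-1 lay just above the highest of them. Duplex transfection minus editing was 0.44 (95% interval -0.19 to 1.06), at an adjusted p of 0.374, and 0.13 with normexp. Against the control, the *miR-150-3p* mean was 0.92 (adjusted p 0.0758) and the siDONSON mean 0.60 (adjusted p 0.131). The edited mean was 0.33 (adjusted p 0.356) and passed in 1 of 17 alternatives. Without siDONSON-2, the siDONSON mean was 0.91 and passed (adjusted p 0.0452, the lowest of 17 alternatives that reached 0.441). The probes agreed in sign on 7 of the 8 arrays, but A_33_P3418170 gave the higher ratio on all 8, 1.66 against 0.98 in EBC-1. In SBC-3 that probe was counted through the treated channel alone, which favors a ratio above 0, and its siDONSON-2 ratio was 1.08-fold (green signal 41.9, red 45.2). With probes counted in both channels the siDONSON mean was 0.28 (adjusted p 0.345), and with normexp it was 0.09 (adjusted p 0.441).

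*TLR3* had a value on 3 arrays, at 0.59 in EBC-1, 0.19 in SK-MES-1 and 0.30 with siDONSON-1. Of these, the EBC-1 ratio alone exceeded the software's 95% limits, which are set from its own error model. No comparison with editing could be made for this gene, because its probe was not above background in A549. Its *miR-150-3p* mean was 0.39 (adjusted p 0.216).

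*EIF2AK2* fell in the edited cells and was near 0 after *miR-150-3p*. The log2 ratio was -0.42, -0.70 and -0.76 in the edited arrays, a mean of -0.62 (SE 0.17, 0.649-fold, adjusted p 0.0441). It was -0.19 in EBC-1 cells and 0.04 in SK-MES-1. With the siRNAs it was 0.09, -0.82 and -0.36, so siDONSON-2 was lower than any edited array. Duplex transfection minus editing was 0.41 (95% interval -0.07 to 0.88, adjusted p 0.281). The call in the edited cells was lost without any 1 of the edited arrays (adjusted p 0.113, 0.201 and 0.205), without either *miR-150-3p* array (0.0519) and without siDONSON-3 (0.0661), and was made in 11 of 17 alternatives (0.0128 to 0.205).

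*ADAR* varied least. The log2 ratio was 0.36 in EBC-1 cells and 0.14 in SK-MES-1, 0.05, 0.00 and 0.03 with the siRNAs and -0.13, -0.01 and 0.06 in the edited cells. Every value lay within the software's 95% limits. Duplex transfection minus editing was 0.17, with an interval of -0.08 to 0.41 (adjusted p 0.395).

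*OAS1*, which makes 2-5A, was the member that passed in *miR-150-3p* minus editing. The log2 ratio was 0.79 in EBC-1 cells and 0.52 in SK-MES-1, and -1.73, -1.05 and -1.12 in A549-GE1, A549-GE2 and A549-GE3. All 5 values lay outside the software's limits, those of *miR-150-3p* above and those of editing below 0. *OAS1* fell in the edited cells by 1.30 on the log2 scale (SE 0.16, 0.407-fold, adjusted p 0.00811), a call made in all 16 alternatives. The mean of 0.65 in the *miR-150-3p* group did not pass (adjusted p 0.0982). *miR-150-3p* minus editing was 1.95 (SE 0.25, 95% interval 1.34 to 2.56, 3.86-fold), at an adjusted p of 0.0221. The SBC-3 arrays had no value for *OAS1* and dropped out of its fit. The call was lost without EBC-1 (adjusted p 0.109) or without GE1, GE2 or GE3 (0.0517, 0.0819 and 0.0711), with a range of 0.0131 to 0.109 over 16 alternatives, and with normexp the difference was 0.77 and the fall in the edited cells 0.41.

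*OAS3*, the OAS enzyme for long double-stranded RNA, did not follow *OAS1* in the transfected cells. Its log2 ratio was -0.37 in EBC-1 cells and 0.06 in SK-MES-1, and -0.73, -0.50 and -0.79 in the edited cells. *OAS3* fell in the edited cells by 0.67 (SE 0.12, 0.627-fold, adjusted p 0.0236). Both probes were below 0 on every edited array. *miR-150-3p* minus editing was 0.52 (95% interval 0.04 to 0.99, adjusted p 0.200), again without the SBC-3 arrays. The fall lost its call without GE1, GE2 or GE3 (adjusted p 0.130, 0.0911 and 0.136) and with normexp (-0.22, adjusted p 0.0691), and held in 12 of 16 alternatives (0.0112 to 0.136).

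*OAS2* and *OASL* had high ratios after *miR-150-3p*. For *OAS2* the mean over 3 probes was 1.51 in EBC-1 cells and 1.13 in SK-MES-1. The probes ranged from 1.28 to 1.85 in EBC-1 and from 0.99 to 1.22 in SK-MES-1, so they agreed in direction. At both probes not above background in the SK-MES-1 control, treated cells measured 2.27-fold and 1.99-fold higher, with software errors of 0.35 and 0.32 in log2. These are ratios to a dim green signal and not lower bounds. These probes were counted there through the treated channel alone, which favors a ratio above 0. The *miR-150-3p* mean of *OAS2* was 1.32 (SE 0.29, 95% interval 0.60 to 2.04, adjusted p 0.0597), and with probes counted in both channels it was 1.37 and passed (adjusted p 0.0221, over 16 alternatives up to 0.391). With normexp it was 0.42. In A549 *OAS2* rests on the red channel of 1 probe, A_33_P3225512, at 1.47, 0.75 and 0.22, with software errors of 0.70, 0.59 and 0.47. The same filter applies to it, and with normexp the edited mean was 0.05 (adjusted p 0.737). The *miR-150-3p* value in EBC-1 and SK-MES-1 is a mean of 3 probes and that in A549 a single probe, so their difference of 0.51 (adjusted p 0.477) does not set like against like. The siDONSON-1 array, also through that probe alone, gave 1.53 with an error of 0.94, within the software's limits.

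*OASL* had the highest log2 ratio of any member on any array, 1.99 in EBC-1 (3.98-fold), beside 0.72 in SK-MES-1. The edited arrays gave 0.15, -0.11 and 0.70, and all 3 lay within the software's limits. The GE3 value is near that of SK-MES-1, but it was counted through the treated channel alone, which favors a ratio above 0. With probes counted in both channels, *OASL* could not be tested against editing. The *miR-150-3p* mean was 1.36 (SE 0.33, 95% interval 0.54 to 2.18, adjusted p 0.0708). *miR-150-3p* minus editing was 1.11 (95% interval 0.07 to 2.15, adjusted p 0.206). Both rest on EBC-1: without SK-MES-1 they were 1.99 (adjusted p 0.0194) and 1.75 (adjusted p 0.0446), over alternatives that reached 0.427 and 0.621, with EBC-1 the lone *miR-150-3p* array, assumed to vary like the other groups.

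**Figure D3:**
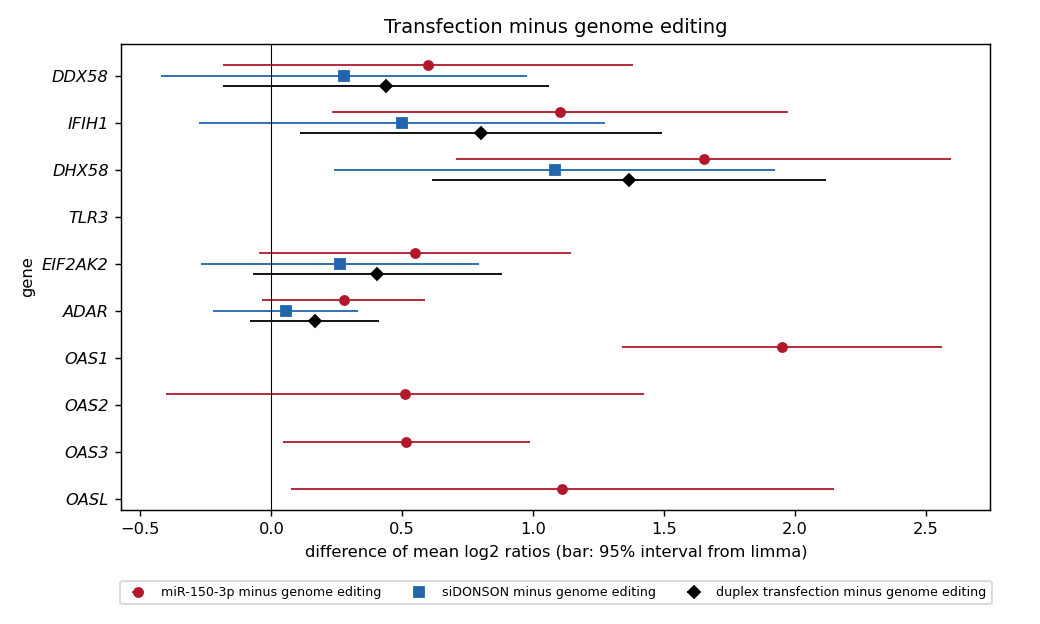
Difference of mean log2 ratios between transfection and genome editing for each gene, with 95% intervals from limma. Red circles are *miR-150-3p*, blue squares siDONSON and black diamonds the mean of both, each minus the edited group. The *OAS1* interval of *miR-150-3p* minus editing runs from 1.34 to 2.56, and *TLR3* has no value.

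Array by array, the members were set beside all genes with a value. In EBC-1, 7 of 10 members lay above the software's 95% limits and 0 below, where 19% of all genes were above and 17.9% below. SK-MES-1 had 6 of 10 above and 0 below, beside 7.4% and 7.47% of all genes. The siDONSON arrays differed among themselves. With siDONSON-1 2 of 7 were above the limits and 0 below (all genes 12.3% and 9.93%). With siDONSON-2 0 of 5 were above and 1 below, *EIF2AK2* (all genes 11.6% and 10.9%), and with siDONSON-3 3 of 5 were above and 0 below (all genes 11.2% and 9.98%). The edited arrays GE1, GE2 and GE3 had 1, 1 and 0 of 9 members above, beside 10.8%, 9.82% and 9.7% of all genes. Below the limits they had 4, 4 and 3 of 9, beside 9.92%, 9.24% and 8.88%. Some members above the limits rest wholly or partly on probes counted through the treated channel alone, which favors a ratio above 0. They are *OAS2* in SK-MES-1 and GE1 and *DDX58* with siDONSON-1 and siDONSON-3. The *DDX58* probe above background in both channels lay within the limits with siDONSON-1 (0.44, error 0.23). The same filter applied to all genes. EBC-1 was also the line with the highest control level at most probes, and the part of that in the ratios was not tested. All treated RNA was in Cy5, so a dye effect of a probe stays in each ratio, while one equal on all arrays cancels in the differences between groups.

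The other genes of the pathway, in fixed lists, had 1 call between duplex transfection and editing. Differences of both signs cancel in a median. Single genes without a call differed by more than *DDX58* among the members (0.44), such as *TBK1* (0.64), *PNPT1* (0.52) and *DNAJC3* (-0.55). Among 13 adaptors, kinases and factors below the sensors, such as *MAVS*, *TBK1* and *IRF3*, 0 of 11 tested were called (2 at an unadjusted p of 0.05, which 23.4% of all genes had), with a median difference of 0.06 beside 0.00 over all genes. Of 11 genes of the 2-5A and PKR arms, 0 of 10 were called (1 unadjusted), with a median of -0.19. Among 16 other RNA-binding or RNA-sensing proteins, 0 of 11 were higher and 1 was lower, *ADARB1* (4 unadjusted, median 0.06). Of 17 interferons and genes of their receptor pathway, 0 of 10 were called (1 unadjusted, median 0.08). Of 6 genes of cytosolic DNA sensing, 0 of 2 were called (0 unadjusted, median -0.02). No probe of *IFNB1*, *IFNK*, *IFNL3*, *TLR7*, *TLR8* or *ZBP1* was counted on any array.

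*ADARB1*, which encodes another adenosine deaminase of double-stranded RNA, was the exception. Its log2 ratio was 1.20, 1.94 and 1.03 in the edited arrays. It was -0.31 in EBC-1, 0.03 in SK-MES-1 and -0.33, 0.82 and -0.12 with the siRNAs, so no transfection array reached the edited ones. Duplex transfection minus editing was -1.40 (SE 0.31, 95% interval -2.10 to -0.69), at an adjusted p of 0.0380. The call was made in 11 of 18 alternatives (adjusted p 0.00407 to 0.158), and with normexp the difference was -0.75. It was lost without EBC-1 (adjusted p 0.0925), siDONSON-1 (0.0586), siDONSON-3 (0.0768) or any edited array (0.121, 0.158 and 0.0935) and with no filter on dim probes (0.0624).

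Over the 8 arrays, the 5 members with a value on each moved together to differing degrees. Pearson's r ran from 0.40 (*EIF2AK2* with *ADAR*) to 0.85 (*IFIH1* with *ADAR*). *DDX58* and *IFIH1* had an r of 0.81, *IFIH1* and *DHX58* 0.77. Other genes followed a member more closely than the members followed each other. Among 12864 genes, those nearest to *DDX58* were *PPP2R1A* (r 0.97), *AKAP7* (0.97) and *ZFYVE28* (0.96), and those nearest to *IFIH1* were *HCRTR1* (0.97), *EPB41L2* (0.97) and *COG3* (0.96). For *DHX58* they were *ENTPD4* (0.96), *NRBP2* (0.95) and *GSTM2* (0.95), for *EIF2AK2* *TMEM229B* (0.97), *KBTBD7* (0.95) and *ETF1* (0.94), and for *ADAR* *TMEM37* (0.99), *RAB42* (0.97) and *CMTR1* (0.97). These values describe 8 arrays that share a slide and fall into 3 treatments, and the highest of so many genes is high by selection.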

How the data were processed

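The authors deposited Agilent Feature Extraction (version 12.1.1.1) output, on probes annotated to hg19 per the file headers. In the deposited files, the processed intensities of both channels had been background-subtracted and dye-normalized by the software. The deposited series table repeats the log10 ratios of the scanner files, and the p-values of the software's error model were not used. Log2 ratios were computed from the processed intensities, without control spots and spots marked as outliers (81 to 133 per array). No spot was saturated (0). Probes were named through accessions, of which 24782 of 50096 matched a RefSeq gene table on a later build than hg19, so names and gene order alone were taken from it.

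limma (3.58.1, R 4.3.3) fitted 3 group means to all 8 arrays, with 5 residual degrees of freedom and Benjamini-Hochberg adjustment over all genes with a value on every array of the groups compared. Replicates are arrays. In the *miR-150-3p* group they differ in cell line, and in the siDONSON group in siRNA. The spread behind the p-values therefore includes differences between lines and between siRNAs, and no line with the same reagent was repeated. For the edited arrays no source says that they came from separate cultures, so their spread may be technical only. The number of arrays limits the precision. If a control is 1 RNA, its own spread is left out. A limit of the software is 1.96 of its errors. The code of the fit was run on simulated data with independent noise, equal in spread over the groups for a gene. That checks the code and not how well the fit suits these arrays.

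The members and lists were chosen with earlier results of these data known. Genes most like a member were the 3 with the highest r. The second promoter motif was added after the matches of the first were seen. Levels that use a bound are on the per-channel scale after Aquantile normalization. Alternatives were normexp (offset 50) with loess, median centring, other filters on dim probes, the brightest probe, marked spots kept, the deposited ratio table, each array left out, only the compared groups in the fit, equal weights and a replicate block. Normexp was planned on the mean signal and run on the median signal, as the files used here give that column. All arrays are on 1 slide, so a slide block could not be fitted. No promoter of *DHX58*, *OAS2* or *OASL* and no sequence of *miR-150-3p* or the siRNAs was used here. Some genes of the lists are not reported here by name.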

Additional observations from a re-analysis of the deposited data

Results flagged for a closer look

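Both members were flagged because the *miR-150-3p* and edited groups lay on opposite sides of 0 on every array. The share of all genes with such a split is not given here. Genes of the fixed lists had it too, such as *TBK1* and *TARBP2*, so the split is not particular to these members. For *OAS1*, *miR-150-3p* minus editing was 1.95, tested with limma at an adjusted p of 0.0221, with both *miR-150-3p* arrays above 0 and all 3 edited arrays below. For *DHX58* the difference was 1.65, with the same split of the 5 arrays, and its test did not pass (adjusted p 0.0694). Neither group passed for *DHX58* against its own control (adjusted p 0.108 with *miR-150-3p* and 0.106 with editing), the edited values of GE1 and GE3 lay within the software's 95% limits, and with normexp the edited mean was -0.12. The groups differ in cell line as well as treatment, which cannot be told apart.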

How the results depend on the processing

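Results with 1 to 3 arrays per group moved with single arrays and with the background correction. Members called in duplex transfection minus editing numbered 0, and 1 with normexp (*IFIH1*), with no filter on dim probes (*OAS1*, tested through SBC-3 signals below background), with both channels above background and with probes counted on all 8 arrays (both *DHX58*). Leaving out 1 array gave 0 to 1. For *miR-150-3p* minus editing, the 1 call became 3 with normexp (*OAS1*, *DHX58*, *IFIH1*) and 0 with probes counted on all 8 arrays, where *OAS1* is not tested, and leaving out 1 array gave 0 to 2. For *miR-150-3p* minus siDONSON normexp gave 1 (*IFIH1*). Normexp also called more genes of all kinds. It called 1265 of 12864 in duplex transfection minus editing, 1009 of 13778 in *miR-150-3p* minus editing and 603 of 13029 in *miR-150-3p* minus siDONSON. Against the control, the *miR-150-3p* group had 5 calls with normexp (*DDX58*, *IFIH1*, *DHX58*, *ADAR*, *OASL*), 2 with both channels (*DDX58*, *OAS2*) and 0 to 2 with 1 array left out, the siDONSON group 0 to 1 with 1 array left out, and the edited group 1 with probes counted on all 8 arrays and 1 to 3 with 1 array left out. For the *miR-150-3p* group against its control, 1537 of 14230 genes were called with normexp and 1092 of 12564 with both channels. With only the compared groups in the fit, the edited group had 4 calls. Among them *DDX58* was higher in the edited cells (0.33, adjusted p 0.0474), where 5873 of 15531 genes were called. *OAS1* in the edited cells was called in each of its alternatives.

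Some directions turned. *DDX58* in siDONSON minus editing was 0.28 as reported, -0.036 with normexp and -0.046 with both channels. In *miR-150-3p* minus siDONSON *DDX58* was 0.32 as reported. It ran from -0.079 (without EBC-1) to 0.72 (without SK-MES-1) with 1 array left out. In the *miR-150-3p* group *EIF2AK2* ran from -0.19 (without SK-MES-1) to 0.040 (without EBC-1), and *OAS3* from -0.37 to 0.056 in the same way. *ADAR* was -0.012 in the siDONSON group after median centring, and in the edited group 0.014 with normexp and from -0.071 (without GE3) to 0.024 (without GE1) with 1 array left out. The cause was not tested.

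Counts over all genes ran from 29 to 1629 for duplex transfection minus editing (759 as reported), 20 to 1876 for *miR-150-3p* minus editing (496), 157 to 1603 for siDONSON minus editing (996), 0 to 1947 for *miR-150-3p* minus siDONSON (350), and 0 to 2973, 26 to 2897 and 470 to 5873 for the 3 groups against their controls (765, 1044 and 2229). EBC-1 had the highest green level at 11 probes under either alternative. No source links the numbers of siRNAs and edited lines, and deviations of same-numbered arrays correlated at -0.020, -0.014 and -0.008 over 13656 genes. With the replicate block, 0 members and 393 genes were called in siDONSON minus editing.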

Other observations

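Other genes of the fixed lists passed the test in comparisons other than that of both transfections with editing, and those named here were picked after their values were seen. *IRF9*, the DNA-binding subunit of the interferon-activated factor ISGF3, had log2 ratios of 1.13 in both EBC-1 and SK-MES-1, 0.53, 0.02 and 0.12 with the siRNAs and 0.67, 0.93 and 0.72 in the edited cells. It rose in the *miR-150-3p* group (1.13, adjusted p 0.0167) and in the edited group (0.77, adjusted p 0.00718), and was higher with *miR-150-3p* than with siDONSON (0.90, adjusted p 0.0457). The call in the *miR-150-3p* group was lost in 2 of 17 alternatives, without EBC-1 (adjusted p 0.130) and with only the groups compared in the fit (0.325), and that in the edited group in 1 of 17, without GE2 (0.0645). That against siDONSON was lost in 8 of 17: without EBC-1 (0.187), siDONSON-2 (0.0648), siDONSON-3 (0.102), GE1 (0.0955), GE2 (0.0966) or GE3 (0.101), with no filter on dim probes (0.103) and with only the groups compared in the fit (0.214).

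*USP18*, a brake on interferon receptor signaling, was 0.49 and 0.52 after *miR-150-3p* and -0.19, -0.32 and -0.08 in the edited cells, and *miR-150-3p* minus editing was 0.70 (adjusted p 0.0454). That call was lost in 8 of 16 alternatives: with normexp (0.30, adjusted p 0.0683), with no filter on dim probes (0.353) and without EBC-1 (0.132), SK-MES-1 (0.0505), siDONSON-1 (0.0567), GE1 (0.154), GE2 (0.187) or GE3 (0.134). *PNPT1* fell in the edited cells (-0.67, adjusted p 0.0110) and *MAVS* rose there (0.37, adjusted p 0.0418). *DNAJC3*, an inhibitor of PKR, fell in the siDONSON group (-1.32, adjusted p 0.0240). *PNPT1* lost its call without GE1, GE2 or GE3 (adjusted p 0.0553, 0.0806 and 0.0782), and *MAVS* without these (0.148, 0.208 and 0.205) or siDONSON-3 (0.0554), each of 17 alternatives. *DNAJC3* lost it without siDONSON-1 (-1.48, adjusted p 0.0549) or siDONSON-3 (-0.90, adjusted p 0.0559) and with only the groups compared in the fit (0.144), 3 of 17.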
